A study of Mus musculus with 12 samples.

Results

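The genes described here are 10 transcription factors that direct the fate of CD4 T helper cells: *Batf*, *Irf4*, *Bhlhe40*, *Nfatc1*, *Gata3*, *Bcl6*, *Prdm1*, *Maf*, *Foxp3* and *Ikzf2*. They were matched by gene symbol in the table the authors deposited, which lists 9 of them, and *Prdm1* by its Ensembl identifier, ENSMUSG00000038151, in the count files. They are 10 of 49585 gene identifiers counted, and all 10 had reads in every library. The rule that picks them uses no measured value.

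The study asked how loss of RNMT, the methyltransferase that completes the mRNA cap, alters gene expression in activated T cells. Total cytoplasmic RNA and ribosome-protected fragments (RPFs), the pieces of mRNA covered by ribosomes, were sequenced in 12 libraries: 3 control and 3 *Rnmt* conditional knock-out (cKO) for each kind. Control mice were labelled *Rnmt* fl/fl CD4cre - and cKO mice *Rnmt* fl/fl CD4cre +. All were female. Both groups carry the floxed alleles, with loxP sites around exon 3, and only the cKO mice carry the Cre. The *Cd4* promoter drives this Cre from the double positive stage of thymic development, before CD4 and CD8 T cells separate, and the controls lack the transgene. The age of the mice was not given in the sources used here. CD4 T cells were isolated from lymph nodes with a kit for naive cells, cultured for 20 h on plates coated with anti-CD3 at 5 ug/ml together with anti-CD28 at 1 ug/ml, and treated with 0.1 mg/ml cycloheximide for 1 min before lysis. Gene counts per library ranged from 15079703 to 22629563 in total RNA and from 4123271 to 10661356 in RPF, with the lowest depth in RPF of cKO replicate 3. A replicate is a separate library by its label, and nothing in the labels says whether each came from its own mouse.

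T cell receptor and CD28 signals first raise or activate a set of factors shared by all helper cells. NFATC1 enters the nucleus on calcineurin signalling, and BATF and IRF4 bind DNA together at composite sites near many activation genes. Lineage factors then fix a fate: GATA3 that of Th2 cells, BCL6 and MAF that of follicular helper cells, PRDM1 (Blimp-1) effector differentiation in opposition to BCL6, and FOXP3 with IKZF2 (Helios) that of regulatory T cells. BHLHE40 is an activation-induced repressor that supports cytokine production by helper cells.

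The labels were first checked with *Rnmt*. In total RNA it measured 94.6 CPM ± 0.753 (SD, n = 3) in control and 30.7 CPM ± 1.56 in cKO libraries. CPM is the count of a gene relative to the reads of its library that fall on genes tested, after scaling by TMM factors. In RPF the means were 97.0 CPM ± 8.27 and 10.2 CPM ± 0.496. The genotypes did not overlap, and the log2 fold changes of cKO over control were -1.62 (SE 0.06) in total RNA and -3.24 (SE 0.10) in RPF. The counts cover the whole gene and not the deleted exon alone. The cell type was checked with 8 markers of CD4 T cells (*Cd3e*, *Cd3d*, *Cd3g*, *Cd4*, *Cd247*, *Cd28*, *Cd5*, *Lck*), all detected in every library. Their summed total RNA level was 3603, 3462 and 3326 CPM in controls and 2543, 2552 and 2890 CPM in cKO, lower in every cKO library. Of the 8 genes, 4 decreased and 0 increased by edgeR's quasi-likelihood test in total RNA, where 28.0% of all genes tested decreased and 26.3% increased. In RPF 4 decreased and 0 increased as well, against 15.7% and 14.1% of all genes.

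The first transcribed base carries the cap, so the start sites of the genes are given first. RefSeq (GRCm38.p6) gave 8 start sites for 6 of the 10 genes, *Gata3*, *Prdm1*, *Batf*, *Irf4*, *Bcl6* and *Foxp3*. Those of *Gata3*, which rose, and of the partners *Irf4* and *Batf* are shown as 30 bases of the coding strand from 15 before the start site, with the first transcribed base in capitals.
Gata3, chr2:9878586-9878615, minus strand: gttgcgtcgcgccacAgctgtctgcgaaca
Irf4, chr13:30749218-30749247, plus strand: tctttctcacctcacTttcctagtttcacc
Batf, chr12:85686705-85686734, plus strand: atgtccctgtggggaGcagtccctctgcac
The start site of *Irf4* is the only one of the 8 that opens with a pyrimidine, a T. None of the 8 begins with C followed by 4 bases that are each C or T, the opening of a terminal oligopyrimidine mRNA, which 2.51% of the 32851 start sites in the table have. This describes the annotated sites, not the start sites used in these cells.

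In control cells the 10 genes spanned a wide range of levels. Set on a scale per kilobase of exon, total RNA was highest for *Irf4*, at 193 CPM per kb ± 23.1 (SD, n = 3). *Batf* followed at 26.4 ± 1.12, *Nfatc1* at 7.59 ± 0.824 and *Bhlhe40* at 4.66 ± 0.822, and these 4 did not overlap in their control values. These 4 are the factors with roles in all helper lineages, and the 6 lineage factors stood below them. *Ikzf2* measured 1.05 CPM per kb ± 0.142, *Gata3* 0.735 ± 0.0275, *Bcl6* 0.651 ± 0.202, *Maf* 0.414 ± 0.102, *Foxp3* 0.195 ± 0.0246 and *Prdm1* 0.0663 ± 0.0122. Among neighbours in this order, *Gata3* and *Bcl6* overlapped, as did *Bcl6* and *Maf*.

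The order changed in the RPF libraries, on a scale per kilobase of coding sequence. *Irf4* was again highest, at 630 CPM per kb ± 101, and *Nfatc1*, at 100 ± 4.29, stood above *Batf*, at 47.6 ± 3.98. *Bhlhe40* measured 21.0 ± 3.54 and *Gata3* 15.2 ± 1.58. Below them were *Foxp3* at 4.67 ± 0.592, *Bcl6* at 3.37 ± 0.859, *Maf* at 3.31 ± 2.18 and *Ikzf2* at 1.61 ± 1.13, whose neighbours in the order overlapped. *Prdm1*, at 0.127 ± 0.0984, was last in both kinds of library. The plot of levels by library shows each value before division by length.

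**Figure D1:**
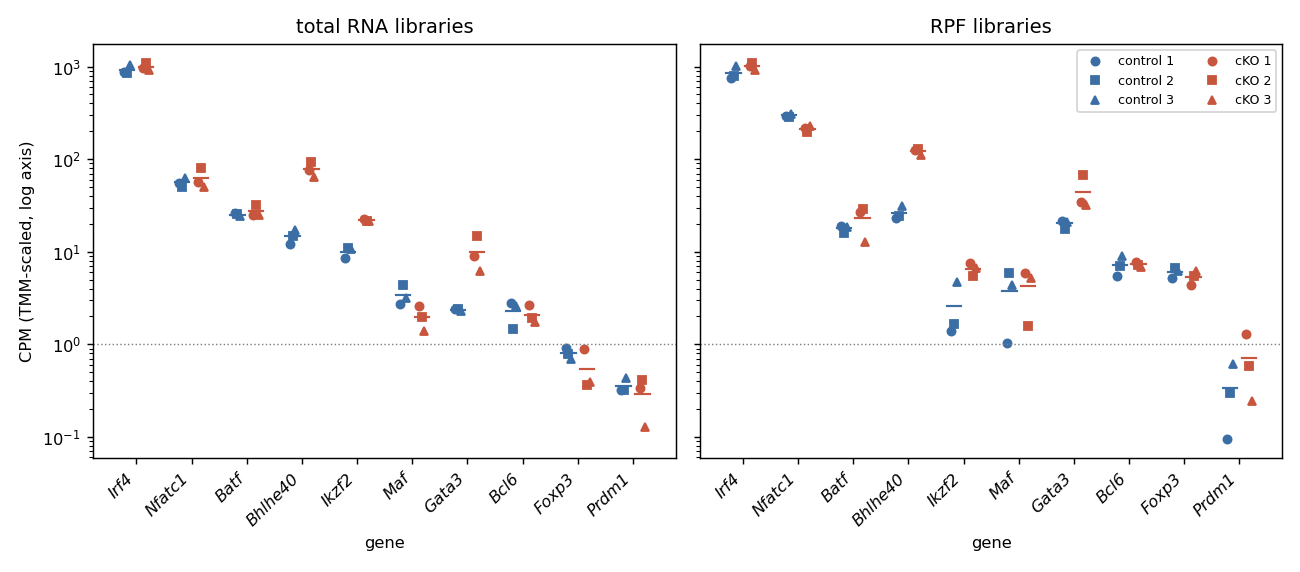
CPM of the 10 genes on a log axis in the 6 total RNA libraries (left) and the 6 RPF libraries (right), with control libraries in blue and cKO libraries in red, one marker shape per replicate number, horizontal lines at group means and a dotted line at 1 CPM. *Bhlhe40*, *Gata3* and *Ikzf2* are higher in all 3 cKO libraries in both panels, *Nfatc1* is lower in all 3 only in RPF, and *Prdm1* stays at or below 1.29 CPM.

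*Gata3*, *Foxp3* and *Nfatc1* had far more RPF than total RNA signal for the size of the libraries. The ratio of the RPF to the total RNA mean in control cells was 8.55 for *Gata3*, 7.53 for *Foxp3* and 5.26 for *Nfatc1*, against 1.14 for the median of 10668 genes measured in both. These ratios exceeded those of 99.1%, 98.9% and 97.8% of these genes. *Bcl6*, at 3.12, was above 93.4% of genes and *Bhlhe40*, at 1.78, above 77.0%. *Maf*, at 1.11, was above 48.5% of genes, *Irf4*, at 0.924, above 38.1% and *Batf*, at 0.709, above 24.1%. *Ikzf2* stood at the other end: its ratio of 0.256 was above only 3.32% of genes. The 9 genes other than *Prdm1* therefore fell from low to high in that range, and each ratio is a description with no test. The ratios are not corrected for length, so they are lower where little of the transcript is coding. *Ikzf2* has 1596 coding bases among 9548 exon bases, and *Maf* 1141 among 8241. On the scales per kilobase above, *Ikzf2* measured 1.61 in RPF and 1.05 in total RNA, and *Maf* 3.31 and 0.414. The total RNA side rests on few reads for *Foxp3*, with 13 to 17 counts per control library, and for *Gata3*, with 42 to 46. The RPF side of *Ikzf2* rests on 15, 11 and 38 counts, with log2 ratios of -2.59, -2.71 and -1.22. *Prdm1* had 1 to 5 RPF counts per control library, too few to place its ratio.

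The transcripts also differ in what surrounds the coding sequence. On the principal transcript of each gene in GENCODE vM21, 9 of the 10 genes have a longer 3′ UTR than the median of 9990 genes, 1026 bases. *Batf* is the exception, at 338 bases. *Ikzf2* has the longest, 7557 bases, with 23 copies of ATTTA, the core of AU-rich elements, where the median gene has 1. *Maf* has 7 copies and *Gata3* 6, whereas *Batf* and *Bhlhe40* have 0 in their 3′ UTRs. Per kilobase of 3′ UTR the copies are 4.63 in *Gata3*, 3.04 in *Ikzf2* and 1.62 in *Maf*, against a median of 1.29. At least 1 ATTTA is present in 8 of the 10, and in 67.6% of the 9990 genes. The 5′ UTR is longest in *Maf*, at 931 bases, and *Gata3*, at 591 bases, against a median of 176, and shortest in *Nfatc1*, at 55 bases. An ATG upstream of the start codon, in any frame, is found in 8 of the 10 and in 51.0% of the 9990 genes. These counts read the sense strand and say nothing of which sites are used.

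The first comparison asked which of the genes changed in total RNA of activated cKO cells. *Bhlhe40* rose 5.25-fold, *Gata3* 4.24-fold and *Ikzf2* 2.17-fold, and *Maf* fell to 0.567 of its control level, whereas *Irf4*, *Batf*, *Nfatc1* and *Bcl6* did not pass the test. Of the 10 genes, 8 were tested and 3 increased and 1 decreased at an adjusted p below 0.05. Across all 11519 genes tested, 54.2% were called, 26.3% increased and 28.0% decreased, so that the 4 of 8 called here is close to the background. The median log2 fold change of the 8 genes was 0.13, and that of all genes tested -0.0037. All changes are shares of what each library held, so a change in RNA content per cell does not show. The paper reports less mRNA per cell in activated cKO cells. It states that decreases of single genes then come out too small and increases too large. In bulk samples, fewer cells of a type and less RNA per cell cannot be told apart.

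*Bhlhe40* encodes a basic helix-loop-helix repressor induced by T cell receptor signals. The gene lies at chr6:108660629-108666925 on the plus strand (GRCm38). Its total RNA level was 12.2, 14.8 and 17.4 CPM in control and 75.8, 92.8 and 64.3 CPM in cKO libraries. Every cKO library was above every control library, and the lowest cKO value was more than 3 times the highest control value. The increase was 2.39 on the log2 scale (SE 0.17, edgeR adjusted p = 2.87e-05).

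*Gata3* (chr2:9857078-9890034, minus strand), the Th2 factor that is also needed for CD4 T cell maintenance, measured 2.39, 2.44 and 2.26 CPM in control and 8.96, 14.96 and 6.26 CPM in cKO libraries. The controls were nearly equal, and the cKO libraries were spread but all higher. The increase was 2.08 on the log2 scale (SE 0.32, edgeR adjusted p = 0.000984).

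*Ikzf2* (chr1:69531214-69687245, minus strand) encodes Helios, a zinc finger protein of the Ikaros family that is abundant in regulatory T cells. Its total RNA level was 8.49, 10.9 and 10.8 CPM in control and 22.7, 21.4 and 21.4 CPM in cKO libraries. The groups did not overlap and the cKO values were nearly equal, with a log2 fold change of 1.12 (SE 0.11, edgeR adjusted p = 0.000131).

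*Maf* (chr8:115682942-115707794, minus strand) encodes c-MAF, a basic leucine zipper factor that promotes interleukin 21 and interleukin 10 production. It measured 2.71, 4.34 and 3.18 CPM in control and 2.58, 1.96 and 1.38 CPM in cKO libraries. The groups were apart by a small margin, between control replicate 1 and cKO replicate 1, and each library held only 32 to 82 counts. The log2 fold change was -0.82 (SE 0.27, edgeR adjusted p = 0.0338). The call was lost when any of control replicates 2 and 3 or cKO replicates 2 and 3 was left out, with adjusted p = 0.118, 0.0547, 0.0636 and 0.0884 and log2 fold changes of -0.61, -0.87, -0.82 and -0.59.

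The activation partners kept overlapping values. *Irf4* (chr13:30749226-30766976, plus strand) measured 872, 844 and 1047 CPM in control and 955, 1082 and 910 CPM in cKO libraries, a log2 fold change of 0.09 (95% interval -0.14 to 0.33). *Batf* (chr12:85686669-85709087, plus strand) had a log2 fold change of 0.12 (95% interval -0.14 to 0.38) and *Nfatc1* one of 0.13 (95% interval -0.26 to 0.53). For these 3 genes the intervals exclude a change as large as that of *Ikzf2* or *Maf*. *Bcl6* (chr16:23965052-23988852, minus strand), the repressor that directs follicular helper cells, measured 2.81, 1.48 and 2.59 CPM in control and 2.65, 1.91 and 1.73 CPM in cKO libraries, and its interval of -0.80 to 0.49 was wider.

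*Foxp3* and *Prdm1* fell under the filter in total RNA. *Foxp3* (chrX:7573644-7595245, plus strand), the factor that defines regulatory T cells, had 17, 15 and 13 counts in control and 13, 7 and 9 in cKO libraries. The groups met at 13 counts, and a fit without the filter gave a log2 fold change of -0.63 (95% interval -1.39 to 0.13). *Prdm1* (chr10:44437177-44528501, minus strand) had 6, 6 and 8 counts in control and 5, 8 and 3 in cKO libraries, which overlapped, with an unfiltered log2 fold change of -0.33 (95% interval -1.38 to 0.72). Neither gene showed a difference detectable at this depth.

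**Figure D2:**
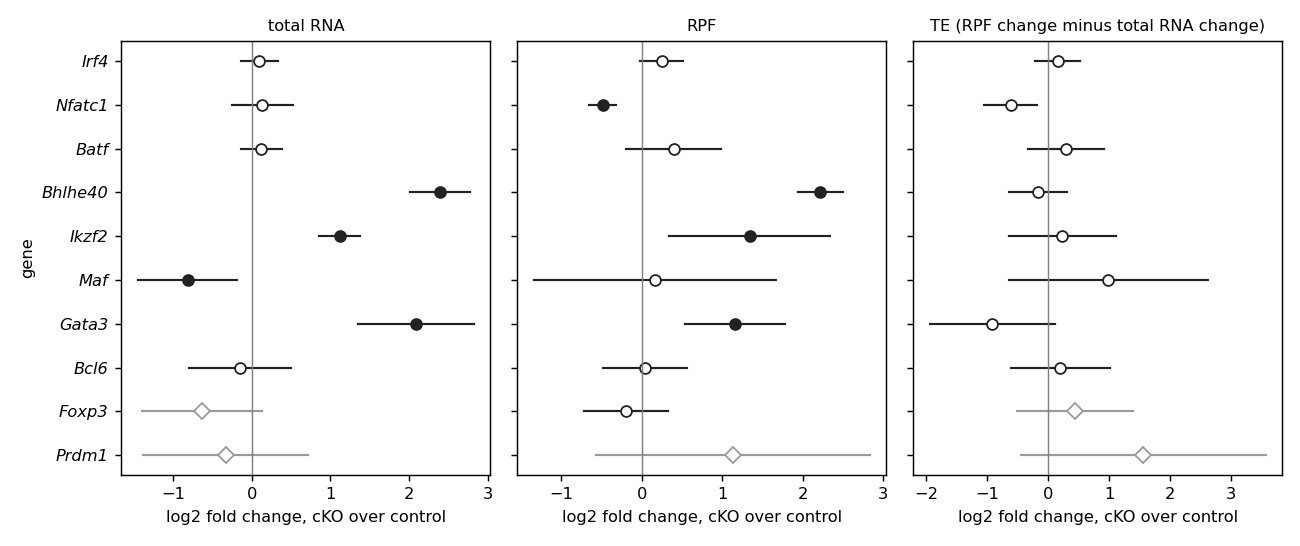
Log2 fold change of cKO over control for each gene in total RNA (left), RPF (middle) and TE (right, the RPF change minus the total RNA change), with 95% intervals. Filled circles passed an adjusted p of 0.05, open circles did not, and grey diamonds are genes under the filter, from a fit without it. Filled points are *Bhlhe40*, *Ikzf2*, *Gata3* and *Maf* in total RNA and *Bhlhe40*, *Ikzf2*, *Gata3* and *Nfatc1* in RPF, with none in TE.

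The second comparison asked whether the same genes changed in RPFs. *Bhlhe40*, *Gata3* and *Ikzf2* increased and *Nfatc1* decreased, while *Maf* did not pass the test here. Of the 10 genes, 9 were tested, with 3 increased and 1 decreased. Of 11428 genes tested, 29.8% were called, 14.1% increased and 15.7% decreased. The median log2 fold change was 0.25 for the 9 genes and 0.0080 for all genes tested.

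*Bhlhe40* RPFs measured 22.9, 24.6 and 31.3 CPM in control and 126, 128 and 112 CPM in cKO libraries. The groups were far apart, with little spread within either. The increase was 2.22 on the log2 scale (SE 0.12, edgeR adjusted p = 4.33e-05) and was called under every alternative run.

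*Gata3* RPFs measured 21.6, 17.8 and 21.2 CPM in control and 34.4, 67.6 and 32.2 CPM in cKO libraries. All cKO libraries were higher, with cKO replicate 2 the highest, as in total RNA. The increase was 1.16 on the log2 scale (SE 0.27, edgeR adjusted p = 0.0138). Without cKO replicate 2 it was 0.73, and without control replicate 2 it was 1.08 with an adjusted p of 0.0501.

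*Nfatc1*, the calcineurin-dependent factor whose RNA did not pass the test in total RNA, had 291, 288 and 311 RPF CPM in control and 215, 195 and 229 CPM in cKO libraries. The groups did not overlap. The log2 fold change was -0.48 (SE 0.07, edgeR adjusted p = 0.0021), a level in control 1.40-fold that in cKO.

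*Ikzf2* RPFs were few, at 1.41, 1.66 and 4.66 CPM in control and 7.49, 5.47 and 6.64 CPM in cKO libraries, or 64 counts over the controls and 147 over the cKO libraries. Control replicate 3 was high and close to the lowest cKO value. The log2 fold change was 1.34 (SE 0.44, edgeR adjusted p = 0.0499), at the threshold. Of the 6 fits that left out 1 library, only the fit without control replicate 3 kept the call, with a log2 fold change of 2.08.

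The other genes overlapped between genotypes. *Irf4* RPFs measured 759, 787 and 1007 CPM in control and 1009, 1098 and 927 CPM in cKO libraries, a log2 fold change of 0.25 (SE 0.12, edgeR adjusted p = 0.142) that passed with DESeq2 (adjusted p = 0.0403) and, at 0.38, without control replicate 3 (edgeR adjusted p = 0.0266). *Batf* measured 18.8, 16.1 and 18.6 CPM in control and 26.9, 29.2 and 12.8 CPM in cKO libraries. Replicates 1 and 2 of cKO were above all controls and cKO replicate 3, the shallowest library, was below them, and without it the log2 fold change rose from 0.40 to 0.65 (edgeR adjusted p = 0.00775). *Foxp3* measured 5.17, 6.63 and 6.25 CPM in control and 4.33, 5.47 and 6.15 CPM in cKO libraries, a log2 fold change of -0.19 (95% interval -0.71 to 0.33). *Maf* varied from 1.03 to 5.88 CPM in control and from 1.56 to 5.97 CPM in cKO libraries, with a log2 fold change of 0.17 (95% interval -1.34 to 1.67). *Bcl6* had a log2 fold change of 0.04 (95% interval -0.48 to 0.56). *Prdm1*, under the filter, had 1, 2 and 5 counts in control and 11, 6 and 1 in cKO libraries, which overlap.

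The third comparison set the change in RPF against that in total RNA, by an interaction term fitted over the 12 libraries, which is called translational efficiency (TE) here. None of the 8 genes tested passed in the quasi-likelihood fit, and 1 of them, *Nfatc1*, had an unadjusted p below 0.05. DESeq2 called 1 gene, *Nfatc1*. Of 10668 genes tested, 9.81% were called, 3.24% increased and 6.57% decreased. The median was 0.18 for the 8 genes and 0.035 for all genes tested.

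The largest decreases in TE were those of *Gata3* and *Nfatc1*. The log2 ratio of RPF to total RNA for *Gata3* was 3.18, 2.87 and 3.23 in control and 1.94, 2.18 and 2.36 in cKO pairs. All 3 cKO pairs lay below the controls, and the change was -0.92 (SE 0.47, edgeR adjusted p = 0.253). A pair block was also fitted, which treats total RNA and RPF libraries of the same genotype and number as a pair. These libraries deviated together, but the labels do not say that they share a mouse. With the pair block the change was -0.94, with an edgeR adjusted p of 0.00843. The change also passed without cKO replicate 2 (-0.95, edgeR adjusted p = 0.0343). For *Nfatc1* the log2 ratio was 2.39, 2.51 and 2.31 in control and 1.92, 1.29 and 2.21 in cKO pairs. The groups were apart by a small margin, with cKO replicate 2 lowest, and the change was -0.62 (SE 0.20, edgeR adjusted p = 0.072). It passed with DESeq2 (adjusted p = 0.0226) and without cKO replicate 3 (-0.81, edgeR adjusted p = 0.016). Without cKO replicate 2 the change of *Nfatc1* was -0.34 (edgeR adjusted p = 0.171), and without cKO replicates 1 and 2 it was -0.21. The pair block left it uncalled at -0.60. The other 6 genes had TE changes of 0.16 for *Irf4*, 0.30 for *Batf*, -0.17 for *Bhlhe40*, 0.23 for *Ikzf2*, 0.20 for *Bcl6* and 0.99 for *Maf*, none with an unadjusted p below 0.05. The TE interval of *Bhlhe40*, -0.65 to 0.31, was narrow beside its changes of over 2 in total RNA and RPF.

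**Figure D3:**
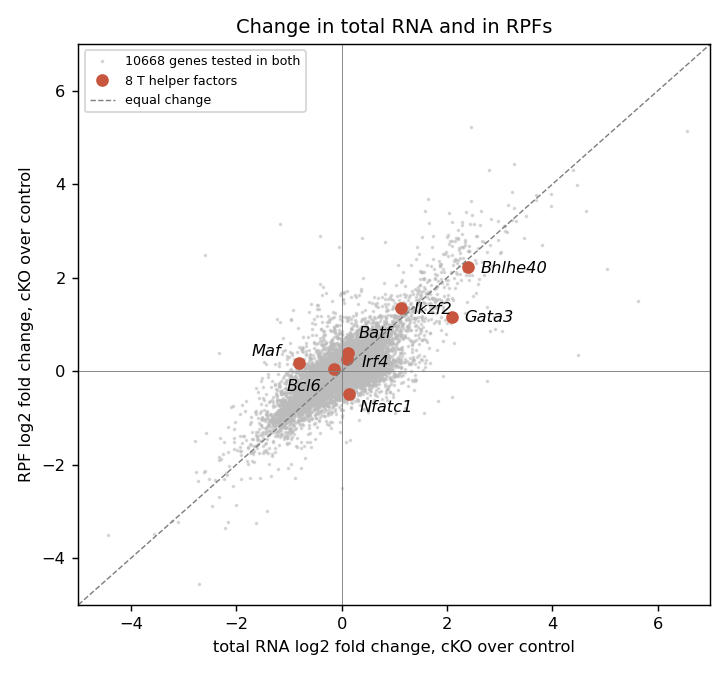
Log2 fold change in total RNA (horizontal) and in RPF (vertical) for 10668 genes tested in both (grey) and the 8 T helper factors among them (red), with a dashed line of equal change. *Bhlhe40* lies near the line at 2.39 and 2.22, *Gata3* below it at 2.08 and 1.16, and *Nfatc1* below it at 0.13 and -0.48.

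Markers of B cells differed between the genotypes on average and are given beside these results. The 8 B cell markers (*Ms4a1*, *Cd79a*, *Cd79b*, *Pax5*, *Ebf1*, *Blnk*, *Cd22*, *Fcer2a*) summed to 10.7, 6.51 and 39.6 CPM in control and 99.5, 139 and 20.04 CPM in cKO total RNA libraries. In RPF they summed to 19.2, 10.7 and 63.9 CPM in control and 181, 253 and 35.7 CPM in cKO libraries. They were highest in cKO replicates 1 and 2, and cKO replicate 3 was below control replicate 3. The most abundant was *Ms4a1* in 5 of the 6 total RNA libraries, at up to 41.1 CPM, and *Ebf1* and *Cd22* had 0 counts in RPF of control replicate 2. In total RNA 4 of the 7 markers tested increased and 0 decreased, beside 26.3% and 28.0% of all genes. In RPF 5 of 8 increased and 0 decreased, beside 14.1% and 15.7%. Without cKO replicates 1 and 2 the median log2 fold changes were 0.07 over 4 markers in total RNA and 0.15 over 6 in RPF. In all libraries they were 2.26 and 2.42. The libraries came from cells isolated with a kit for naive CD4 T cells. B cells and plasma cells also express *Irf4*, *Bcl6*, *Prdm1* and other genes named here. The part of these cells in the results was not tested, and the following values bear on it.

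Without cKO replicates 1 and 2, a choice made after the data were seen, the single cKO library left is assumed to vary as the controls do. In total RNA the log2 fold changes were then 2.15 for *Bhlhe40*, 1.43 for *Gata3*, 1.12 for *Ikzf2* and -1.27 for *Maf*, and the same 3 increases and 1 decrease were called. In RPF only *Bhlhe40* was still called, at 2.09, whereas *Gata3* was at 0.67, *Ikzf2* at 1.37 and *Nfatc1* at -0.38, with adjusted p = 0.0737, 0.256 and 0.0532. *Irf4* moved from 0.09 to 0.01 in total RNA and *Batf* from 0.40 to -0.49 in RPF. Within the cKO group, *Bhlhe40* and *Gata3* in total RNA ranked as the B cell markers did, highest in replicate 2 and lowest in replicate 3, and *Bhlhe40* was highest of the controls in control replicate 3, the control highest in B cell markers, where *Gata3* was the lowest of the controls.

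**Figure D4:**
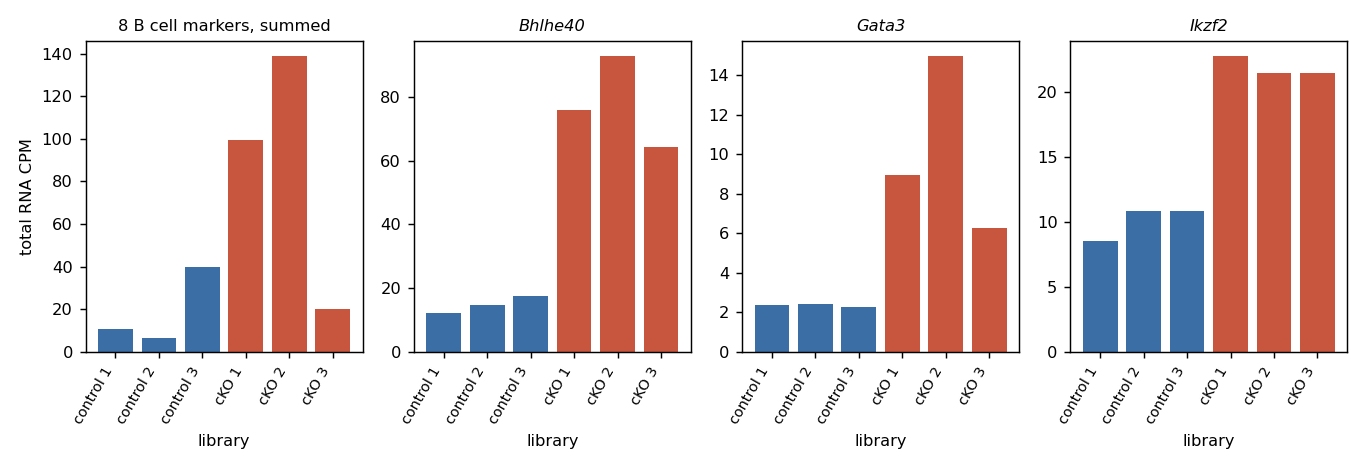
Total RNA CPM by library for the sum of 8 B cell markers and for *Bhlhe40*, *Gata3* and *Ikzf2*, with control libraries in blue and cKO libraries in red. Bars start at 0. The marker sum in cKO replicate 3, 20.04 CPM, is below that of control replicate 3, 39.6 CPM, while each of the other genes is higher in cKO replicate 3 than in any control.

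Markers of other cells were also present. The 2 CD8 T cell markers, *Cd8a* and *Cd8b1*, summed to 21.4, 21.4 and 41.7 CPM in control and 26.4, 21.3 and 9.85 CPM in cKO total RNA libraries. In each control this sum was above that of the B cell markers. Neither gene passed the test, and both decreased in total RNA in the fit without cKO replicates 1 and 2. The 5 plasma cell markers summed to at most 2.33 CPM in control and 8.31 CPM in cKO total RNA, led in that library by *Mzb1*, and *Tnfrsf17* had 0 counts in 5 of the 6 libraries. In total RNA 1 of the 2 tested increased, *Sdc1*, which was at or under 1 CPM in every control, and in RPF 2 of 3. The shares of all genes given for the B cell markers apply here too. The 11 myeloid markers summed to 0.69 to 1.08 CPM in control and 1.51 to 3.80 CPM in cKO total RNA, with *Clec9a* at 0 counts in all 6 and none tested. In RPF the 2 tested were *Spi1*, at 0.376, 0 and 1.72 CPM in control and 5.50, 9.96 and 0.738 CPM in cKO, and *Fcer1g*, at up to 0.151 CPM in control and 1.23 to 2.44 CPM in cKO, which reached the filter mainly or only through the cKO libraries. The 8 NK and innate lymphoid markers summed to 3.77 to 4.91 CPM in control and 6.26 to 11.9 CPM in cKO, led by *Klrd1* in controls and by *Gzma* in cKO replicates 1 and 2, and 0 of 1 tested passed there. In RPF *Gzma* had 1 count over the 3 controls and 45, 184 and 6 in cKO, so that it was tested only through the cKO libraries. Some innate lymphoid cells also depend on *Gata3*. The 5 mast cell and basophil markers summed to 0.159 to 0.582 CPM in control and 0.882 to 1.24 CPM in cKO total RNA, led by *Kit*, which was highest in cKO replicate 3 at 1.04 CPM. How far any of these cells entered the results was not tested.

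Genes that work with these factors are given as lists, each to be read against the background of all genes tested, 26.3% increased and 28.0% decreased in total RNA and 14.1% and 15.7% in RPF, with medians near 0. No list was tested against that background. Over all genes the fit without cKO replicates 1 and 2, used beside some lists, made fewer calls in both kinds of library. Its list counts are therefore not to be read against these shares.

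Beside *Batf* and *Irf4*, other AP-1 and IRF genes were listed by family, not by whether their proteins bind BATF or IRF4. Of 16 such genes, 15 were tested in total RNA, with 8 increased, 1 decreased and a median log2 fold change of 0.47. In RPF 6 of 15 increased and 0 decreased, with a median of 0.41. *Atf3*, a stress-induced AP-1 partner, had a total RNA change of 2.97 and an RPF change of 2.80, *Jun* one of 2.42 and 2.57, and *Junb* one of 1.19 and 1.19. *Irf8*, which is also a B cell gene, had changes of 1.69 and 1.85. In TE 0 of 15 passed, with a median of -0.00083. When cKO replicates 1 and 2 were left out, 7 of 14 increased in total RNA and 4 of 15 in RPF.

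Around *Nfatc1*, 18 genes of the NFAT and calcineurin pathway gave 15 tested. In total RNA 5 increased and 5 decreased, with a median of 0.08, and in RPF 1 increased and 3 decreased, with a median of 0.05. Without cKO replicates 1 and 2 the medians were 0.04 and 0.01. *Nfatc2*, the other main NFAT of T cells, had a total RNA change of 0.04 that did not pass and an RPF change of -0.58 (edgeR adjusted p = 0.00473), beside 0.13 and -0.48 for *Nfatc1*. *Nfat5*, the tonicity-responsive member, rose by 1.04 in total RNA and 0.59 in RPF. *Rcan3*, of the calcineurin regulator family, had changes of -1.66 in total RNA and -1.60 in RPF. *Ppp3cc*, a calcineurin catalytic subunit, fell by 0.62 in total RNA. In TE 0 of 15 passed, with *Nfatc2* at -0.61.

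The Ikaros family beside *Ikzf2* has 4 more genes, all tested. In total RNA 2 increased and 1 decreased, and in RPF 0 increased and 1 decreased, the decrease being *Ikzf1* (Ikaros) in both, at -0.77 and -0.68. *Ikzf4* (Eos), a partner of FOXP3, rose by 1.10 in total RNA and *Ikzf5* by 0.56. In RPF *Ikzf4* was at 0.79 with an edgeR adjusted p of 0.0582. Leaving out cKO replicates 1 and 2 gave 1 increase among the 4 in total RNA.

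The regulatory T cell genes did not move as one. Of 16, 13 were tested in total RNA, with 7 increased, 3 decreased and a median of 0.58, and 14 in RPF, with 6 increased, 3 decreased and a median of 0.34. The 3 decreases were the same genes in both: *Nt5e*, encoding CD73, with changes of -2.46 in total RNA and -2.88 in RPF, *Capg*, an actin-capping protein, with -1.69 and -1.46, and *Izumo1r*, encoding folate receptor 4, with -1.32 and -1.09. *Swap70* rose by 1.21 and 1.58, and is also used by B cells. In the fit without cKO replicates 1 and 2, 5 increased and 3 decreased in total RNA, with a median of 0.23, and 4 and 2 in RPF, with a median of 0.60. *Foxp3* was at 0.361 to 0.902 CPM in total RNA across the 6 libraries.

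Other factors that set helper and effector fates numbered 38. In total RNA 12 of 34 tested increased and 8 decreased, with a median of 0.25, shares of 35.3% and 23.5%, and in RPF 15 of 35 increased and 10 decreased, with a median of 0.29, shares of 42.9% and 28.6%. *Eomes*, the T-box factor of memory and cytotoxic cells, rose by 3.13 in total RNA and 2.98 in RPF. *Runx2* rose by 2.41 and 1.95, *Zeb2*, which encodes a transcriptional repressor, by 2.08 and 2.13, and *Klf4* by 2.00 and 1.54. In total RNA *Runx2* and *Klf4* were under 1 CPM in every control and reached the filter through the cKO libraries. Without cKO replicates 1 and 2, 11 of 32 increased and 8 decreased in total RNA, with a median of 0.12, and 5 of 33 and 3 in RPF, with a median of 0.32.

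Many products of T helper differentiation were under the filter at 20 h. Of 22 cytokine and target genes, 11 were tested in total RNA, with 7 increased and 2 decreased and a median of 1.05, and 10 in RPF, with 3 increased and 2 decreased. *Ifng* rose by 3.24 in total RNA and 3.84 in RPF. *Csf2*, encoding GM-CSF, is among the 7 increases but was tested only through the cKO libraries, with 2, 2 and 3 counts in control and 28, 81 and 39 in cKO. *Il2* rose by 1.48 and 1.83, and *Ccr8* by 1.40 in total RNA. The Th2 cytokines *Il4*, *Il5* and *Il13*, targets of GATA3, did not reach the filter in either kind of library. In total RNA *Il4* had 1, 0 and 2 counts in control and 6, 11 and 3 in cKO, *Il5* had 0 in every control and 2, 35 and 3 in cKO, and *Il13* had 1, 2 and 5 in control and 5, 28 and 8 in cKO. On the CPM scale all 3 were highest in cKO replicate 2 in total RNA, and most other values rest on few reads. For *Il4* the nearest values were 0.108 CPM in control replicate 3 and 0.130 CPM in cKO replicate 3. In RPF *Il4* overlapped, with 1, 0 and 3 counts in control and 3, 22 and 0 in cKO, while *Il5* had 0 in every control and 5, 16 and 1 in cKO, and *Il13* had 1, 0 and 1 in control and 6, 46 and 2 in cKO. Without cKO replicates 1 and 2 the counts in total RNA were 4 increased and 2 decreased of 9 tested, with a median of 0.32. In RPF they were 2 and 2 of 10, with a median of 0.19 against 0.79 in all libraries.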

How the data were processed

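The authors prepared cytoplasmic RNA and RPF libraries with a ribosome profiling kit that keeps strand, trimmed reads with cutadapt, removed rRNA and tRNA reads with Bowtie and aligned to mm10 with STAR 2.5.2b on GENCODE vM12. The authors deposited whole-number read counts per gene, without normalization, and a table of 10126 genes with signal per library, fold changes and p-values, of which the last were not used. The deposited signal equalled the reverse strand counts within 0.01 read, up to a factor per library, so these counts were used. Reads that name no gene, 41.1 to 70.4% of the total, were left out.

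Genes with over 1 CPM in at least 3 of 6 libraries were fitted with edgeR 4.0.16 (TMM, quasi-likelihood F test, R 4.3.3) within each kind, and TE by a genotype-by-kind interaction term over all 12 libraries. P-values were Benjamini-Hochberg adjusted over all genes tested, with a threshold of 0.05. They measure the spread between libraries, which may be technical. CPM were TMM-scaled. Annotation was GENCODE vM21, where 49326 of 49585 identifiers matched. DESeq2 1.42.0 and the other settings given under processing were alternatives. Within genotype, total RNA and RPF libraries of the same number had correlated deviations from their group means (r of 0.16, 0.20 and 0.37 in control, 0.11, 0.38 and 0.29 in cKO). The pair block was therefore run as an alternative in TE, though no label says that such libraries share a mouse. The TE values given first have no block. No 2 libraries agreed within sampling noise. The fits were tested on simulated data. Named beside the 10 genes were, from each list, at most the 4 genes with the largest change that passed the test and did not overlap between genotypes, besides genes needed to show an absence. Some genes are not reported here and were left out of the lists. The genes, lists and tests were chosen with earlier results of these data known. Figures used Python 3.11.15 and matplotlib 3.10.9.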

Additional observations from a re-analysis of the deposited data

How the results depend on the processing

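The alternatives were library size without TMM, upper quartile factors, DESeq2, no filter and at least 10 counts in every library. Others were counts of both strands, a replicate block and each library left out. The exact test of edgeR was run in total RNA and RPF only, and the pair block in TE only. A further alternative, chosen after the data were seen, left out cKO replicates 1 and 2 together. Over all of them, 335 fold changes of the genes tested (8 in total RNA and in TE, 9 in RPF, without *Prdm1*, and without *Bcl6* and *Maf* in TE by DESeq2, which gave them no adjusted p) kept direction and side of the threshold, 16 lost the call, 7 gained it and 15 changed sign. *Bhlhe40*, *Gata3* and *Ikzf2* in total RNA and *Bhlhe40* in RPF kept their calls throughout. Control and cKO libraries share only a number. With the replicate block 0 of the genes decreased in total RNA, since *Maf* (-0.81) had an adjusted p of 0.0603. In TE, DESeq2 called 1 decrease (*Nfatc1*) and the pair block 1 (*Gata3*), and without the filter 214 of all genes increased. Upper quartile factors and counts of both strands ended the RPF call of *Ikzf2* (1.32 and 1.35). With 1 library left out, the genes called ranged from 0 to 1 decreased in total RNA, from 1 to 4 increased in RPF and from 0 to 1 decreased in TE, and all genes called in TE from 122 to 367 increased and from 415 to 812 decreased. Log2 fold changes that crossed 0 on leaving 1 library out, all uncalled, ranged in total RNA from -0.39 to 0.018 for *Bcl6* and from -0.074 to 0.29 for *Nfatc1*, in RPF from -0.14 to 0.24 for *Bcl6* and from -0.33 to 0.63 for *Maf*, and in TE from -0.16 to 0.41 for *Bcl6* and from -0.028 to 0.92 for *Ikzf2*. Without cKO replicates 1 and 2, 477 genes increased and 520 decreased in RPF, 81 and 294 in TE, and of the 10 genes 1 increased and 0 decreased in RPF. The sign then changed for *Batf* (-0.0019 in total RNA, -0.49 in RPF, -0.48 in TE), *Nfatc1* (-0.16 in total RNA), *Bcl6* (-0.049 in RPF) and *Foxp3* (0.037 in RPF). The cause was not tested, except that these fits hold fewer samples. Depth limits *Prdm1* and *Foxp3* in total RNA, with at most 17 counts a library.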

Other observations

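The Egr and Nr4a genes are induced early by T cell receptor signals. Of 6, 4 increased and 0 decreased in total RNA, with a median log2 fold change of 1.19, and 4 increased and 1 decreased in RPF, with a median of 0.49. *Nr4a3* rose by 1.71 in total RNA and 1.27 in RPF, *Nr4a2* by 1.36 and 1.13, and *Nr4a1* by 1.01 and 0.73. *Egr2*, at 0.08, and *Egr3*, at -0.11, did not pass in total RNA, and *Egr3* decreased in RPF, at -0.44. *Egr1* rose by 1.61 in total RNA and by 0.25 in RPF, and its TE change of -1.36 (SE 0.27, edgeR adjusted p = 0.00655) was the one called in this list.

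Of 7 STAT factors, 1 increased and 2 decreased in total RNA. *Stat5a*, which carries interleukin 2 signals, rose by 1.82 in total RNA and 1.41 in RPF, whereas its relative *Stat5b* fell by 0.38 in total RNA and *Stat6*, which acts upstream of *Gata3* in interleukin 4 signalling, fell by 0.51 and 0.35. Of 11 corepressors and cofactors, 4 increased and 1 decreased in total RNA and 4 increased and 4 decreased in RPF. *Chd4*, a chromatin remodeller, rose by 0.70 in total RNA and fell by 0.22 in RPF, with a TE change of -0.92 (SE 0.09, edgeR adjusted p = 5.19e-05). *Mta3* fell by 0.52 in RPF, *Ezh2* rose by 0.71 in total RNA and 0.38 in RPF, and *Nrip1* rose by 0.41 and 0.38. Without cKO replicates 1 and 2, the corepressors gave 0 increased and 1 decreased in RPF, where the calls over all genes fell from 1612 increased and 1796 decreased to 477 and 520.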
